A study of Arabidopsis thaliana with 24 samples.

Results

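The roots of the *stop1* mutant were compared with wild-type roots in the medium that contains aluminum (+Al), over all 20450 genes of the expression table. The comparison rests on 4 of the 24 RNA-seq libraries of the study, 2 from *stop1* and 2 from wild-type, each labelled as a biological replicate. *stop1* is the T-DNA insertion line SALK_114108, a single allele in the *Arabidopsis thaliana* accession Col-0, and wild-type is Col-0 itself. Seedlings of both genotypes were grown for 5 d and then kept for 16 h in 0.1X MS liquid medium with 1% sucrose, after which roots were collected. Per the study's methods, the RNA came from root tip sections pooled over many seedlings. The +Al medium had 0 mM Pi, pH 5 and, per the labels, 100 µM AlCl3. The study's methods name a higher concentration of AlCl3 than the labels, and which of them holds for these libraries was not resolved. The medium -Pi_pH5 had 0 mM Pi and pH 5 without AlCl3, and its 2 *stop1* and 2 wild-type libraries are the closest match to +Al. The remaining media were +Pi_pH6 (1 mM Pi, pH 6), -Pi_pH6 (0 mM Pi, pH 6), +Pi_pH5 (1 mM Pi, pH 5) and ++Fe (0.1 mM Pi, 0.1 mM FeSO4, pH 5).

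STOP1 is a zinc finger transcription factor of the nucleus that plants need to grow in acid soil. At low pH, aluminum dissolves as a toxic cation that binds to cell walls, plasma membranes and DNA and arrests the root tip. The best known defence is the release of malate, which chelates the cation outside the cell, through the channel ALMT1. Other defences move aluminum within the plant, seal or remodel the wall, and keep the pH and the ion balance of the cell.

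The libraries held 21163409 and 19744037 reads on genes in *stop1* +Al and 17027929 and 21321301 in wild-type +Al, and CPM here are reads on a gene scaled to a fixed library size. A single read was worth 0.0459 and 0.0485 CPM in *stop1* and 0.0557 and 0.0450 CPM in wild-type. *STOP1* itself (AT1G34370, chromosome 1, 12550339 to 12552629, forward strand of TAIR10.1) had 31.6 and 35.8 CPM in *stop1* +Al against 108 and 135 CPM in wild-type +Al, which fits the labels. The reads that remained in the mutant do not show whether the transcript was whole. The wild-type +Al replicates differed most among the 12 pairs of replicates, with a standard deviation of 0.43 on the log2 scale between replicates, against 0.27 for *stop1* +Al. Photosynthesis genes, a marker of leaf tissue, summed to 111 and 117 CPM in *stop1* +Al and to 739.6 and 206 CPM in wild-type +Al, so that wild-type replicate 1 stood apart from the other 3 libraries. Of the 40 such genes 1 was lower in *stop1* at the threshold used here, and 15 were by edgeR's likelihood ratio test. The limma count was 4 without wild-type replicate 2 and 0 without any one of the other 3 libraries. Wild-type replicate 2 was the highest of the 4 libraries in another list, the hypoxia and fermentation genes. These summed to 1808 and 2796 CPM in *stop1* +Al and to 2456 and 5590 CPM in wild-type +Al. How far either wild-type replicate shaped the results below was not tested beyond leaving it out. For most lists, counts of calls are also given without a single +Al library where that moved them by more than 1.5 times.

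In total, 4113 genes differed between *stop1* and wild-type roots in +Al, which is 20.1% of the genes tested (limma on log2(CPM + 1), Benjamini-Hochberg adjusted p under 0.05). Of these, 2288 genes (11.2%) were higher and 1825 genes (8.92%) were lower in *stop1*. These shares are the background for the counts of each list and family below with all libraries. They are not the background for counts without a single library, because the totals over all genes moved too. The libraries of the genotypes did not overlap for 4112 of the 4113. Genes that pass the threshold with 2 libraries per group mostly separate by that rule. The share over all genes is not given here, so this count adds no support. Differences of at least 2-fold were found for 894 higher and 786 lower genes, of at least 4-fold for 150 higher and 183 lower genes, and of at least 8-fold for 30 higher and 60 lower genes. The genes that were higher took up 19.6% and 19.0% of all reads in *stop1* and 9.18% and 11.2% in wild-type. The genes that were lower took up 5.29% and 5.07% of reads in *stop1* and 12.3% and 11.2% in wild-type. Without wild-type +Al replicate 1, 1205 genes were higher and 1075 lower. Without *stop1* +Al replicate 1 the count of higher genes was 1267, and without *stop1* +Al replicate 2 that of lower genes was 1183.

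The same contrast called few genes in the other media. In +Pi_pH6, 39 genes (0.191%) differed between the genotypes, in -Pi_pH6 109 (0.533%), in +Pi_pH5 83 (0.406%), in -Pi_pH5 120 (0.587%) and in ++Fe 248 (1.21%). Of the genes called in +Al, 3842 were called in no other medium. The difference between +Al and -Pi_pH5 was tested directly, as the genotype difference in +Al minus that in -Pi_pH5. This interaction was called for 1363 genes (6.67%), with 592 (2.89%) above and 771 (3.77%) below 0. It was called above 0 for 570 of the genes that were higher in +Al and below 0 for 733 of those that were lower. Both contrasts hold the same +Al difference, so this match in sign was largely built in. In all 6 media, 21 genes were lower in *stop1*, among them *STOP1*, *ALMT1*, *CIPK23*, *DGR2*, *GDH1* and *PGIP1*, and 4 were higher (*MAF4*, *MSRB6*, AT3G56210 and AT4G04223).

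Genes with a known role in resistance to aluminum or in the acid response were mostly lower in *stop1*. Of the 16 measured members of this list, 13 were lower, 2 higher and 1 was not called, with a median log2 difference of -2.30 beside -0.02 over all genes. The list holds targets that earlier work had tied to STOP1, so that its direction is no independent evidence. *ALMT1*, which encodes the malate channel, had 0.0459 and 0 CPM in *stop1* +Al against 243 and 187 CPM in wild-type +Al, at least 1520-fold lower when the mutant is set to the detection floor of 3 reads per library. In -Pi_pH5 it had 0.0957 and 0 CPM in *stop1* and 23.1 and 21.6 CPM in wild-type. *ALMT1* thus had at most 2 reads in any of these *stop1* libraries, while the wild-type libraries of both media lay far above them.

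**Figure D1:**
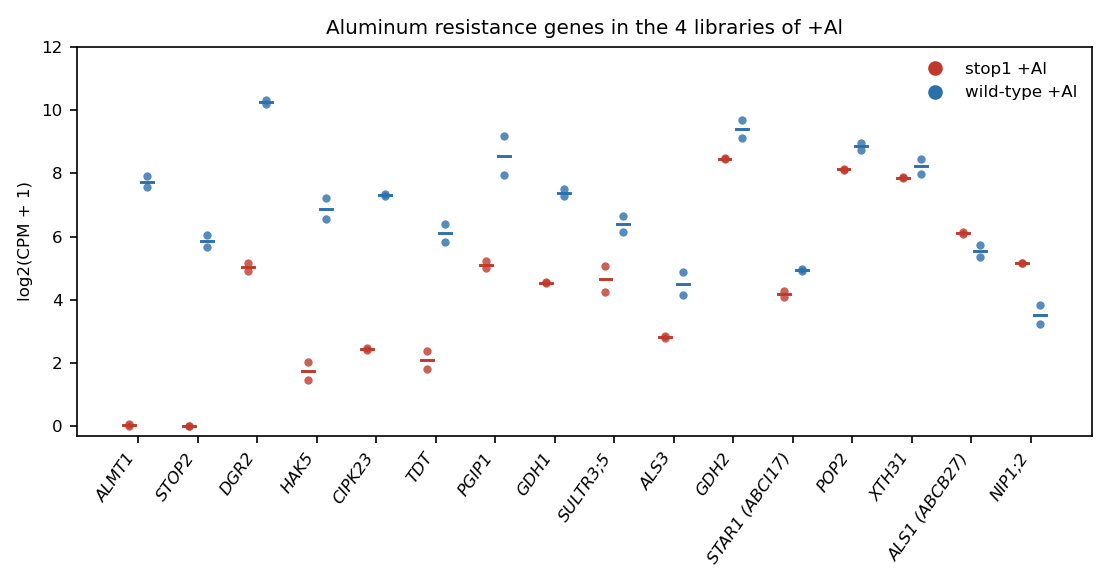
Level of the aluminum resistance genes, as log2(CPM + 1), in each of the 2 *stop1* +Al libraries and the 2 wild-type +Al libraries (points, with the mean as a line). The *stop1* points lie below the wild-type points for the 13 genes called lower, and above them for *NIP1;2* and *ABCB27*.

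*STOP2* (AT5G22890), the closest relative of *STOP1*, had no read in either *stop1* +Al library and 50.4 and 64.7 CPM in wild-type, at least 406-fold lower. *DGR2*, a cell wall protein of the DUF642 family, had 28.9 and 34.5 CPM in *stop1* against 1174 and 1292 CPM in wild-type (log2 difference -5.24 ± 0.11, SE, adjusted p = 2.31e-15). This was the smallest p of all genes tested. *CIPK23*, a protein kinase that activates potassium and nitrate transporters, had 4.31 and 4.56 CPM in *stop1* and 162 and 154 CPM in wild-type. The potassium transporter *HAK5*, one of its substrates, had 3.12 and 1.75 CPM in *stop1* and 93.0 and 147 CPM in wild-type (log2 difference -5.13 ± 0.27, adjusted p = 6.38e-10). In -Pi_pH5 *HAK5* was not lower in the mutant, with 7.09 and 5.91 CPM in *stop1* and 1.83 and 3.73 CPM in wild-type, and its genotype difference changed between the media (interaction -6.16, adjusted p = 8.08e-08). For *CIPK23* the interaction was 0.28 (adjusted p = 0.567), with 3.78 and 3.05 CPM in *stop1* -Pi_pH5 and 143 and 168 CPM in wild-type -Pi_pH5.

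The remaining members acted on malate, glutamate, sulfate, the wall and transport of aluminum itself. *TDT*, the malate carrier of the vacuole, had 4.22 and 2.52 CPM in *stop1* and 56.0 and 82.9 CPM in wild-type. *PGIP1*, which inhibits pectin-degrading enzymes, had 36.1 and 31.0 CPM in *stop1* and 245 and 579.6 CPM in wild-type. *GDH1*, a glutamate dehydrogenase, had 22.1 and 22.5 CPM in *stop1* and 156 and 179.7 CPM in wild-type. The partner *GDH2*, the GABA transaminase *POP2*, the half-size transporter *ALS3*, the ABC protein *ABCI17* and the sulfate transporter *SULTR3;5* were also lower, by 0.73 to 1.75 on the log2 scale. *ALS3* had 6.20 and 5.97 CPM in *stop1* +Al against 17.0 and 28.2 CPM in wild-type +Al, while in -Pi_pH5 it had 7.85 and 8.73 CPM in *stop1* and 8.56 and 8.49 CPM in wild-type (interaction -1.65, adjusted p = 0.00081). *NIP1;2*, which carries aluminum malate into root cells, was higher, with 34.6 CPM in each *stop1* library against 13.3 and 8.32 CPM in wild-type. *ABCB27*, the vacuolar transporter also called ALS1, had 69.4 and 67.0 CPM in *stop1* and 39.97 and 51.9 CPM in wild-type, a call lost without wild-type +Al replicate 1. *XTH31*, a xyloglucan enzyme that sets how much aluminum the wall binds, was not called, with 233 and 231 CPM in *stop1* and 353 and 250.3 CPM in wild-type.

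Beyond this list, a cluster of receptor kinase genes on chromosome 1 held some of the lowest log2 differences. AT1G51830, a leucine-rich repeat kinase, had 1.33 and 0.437 CPM in *stop1* +Al and 379 and 459.9 CPM in wild-type +Al (log2 difference -7.84 ± 0.21, adjusted p = 9.12e-14), the lowest log2 difference of all genes. Its neighbour AT1G51840 had 0.0918 and 0 CPM in *stop1* and 43.1 and 58.2 CPM in wild-type, at least 358-fold lower. AT1G51850 had 10.9 and 10.7 CPM in *stop1* and 82.8 and 66.8 CPM in wild-type. Reads shared by such close copies could have been split between them. Of the 107 measured genes with the product name leucine-rich repeat protein kinase family protein, 36 were lower and 8 higher. Their median log2 difference was -0.14, and -0.0009 without wild-type +Al replicate 1. Of 23 genes named as leucine-rich receptor-like protein kinases 2 were lower and 2 higher. AT1G51840, annotated as a kinase-like protein, is in neither group. Also among the 10 lower genes with the smallest p were AT5G27920, annotated as an F-box protein, with 7.11 and 6.84 CPM in *stop1* against 96.4 and 101 CPM in wild-type, and AT5G02480, a protein related to small heat shock proteins, with 21.8 and 20.05 CPM in *stop1* against 219 and 214 CPM in wild-type.

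Of 25 measured genes of nitrogen uptake and assimilation 11 were lower in the mutant, 2 higher and 12 not called, with a median log2 difference of -0.48. *NRT1.1*, the nitrate transporter and sensor, had 125 and 96.3 CPM in *stop1* +Al and 1287 and 1124 CPM in wild-type +Al (log2 difference -3.44 ± 0.19, adjusted p = 1.15e-09). The next steps followed the same order of genotypes. Nitrate reductase *NIA1* had 91.0 and 55.3 CPM in *stop1* and 704.5 and 799.7 CPM in wild-type, and nitrite reductase *NIR1* 252 and 199 CPM in *stop1* and 907 and 712 CPM in wild-type. Glutamine synthetase *GSR2* had 604 and 512 CPM in *stop1* and 1654 and 1360 CPM in wild-type. The ammonium transporters *AMT1;1* and *AMT2* were the 2 higher members, with *AMT1;1* at 169 and 174 CPM in *stop1* and 83.7 and 98.1 CPM in wild-type. In -Pi_pH5, *NRT1.1* had 1415 and 1197 CPM in *stop1* and 1568 and 1305 CPM in wild-type, and the interaction was -3.31 (adjusted p = 1.63e-06). Without wild-type +Al replicate 1, 7 nitrogen genes were lower and 1 higher.

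Several proton pumps of the plasma membrane and water channels were also lower. *HA2* (AHA2), the main proton pump of the root, had 733 and 650.3 CPM in *stop1* and 3039 and 2667 CPM in wild-type, and stood among the 5 genes with the largest loss in CPM. *HA7* had 28.4 and 29.2 CPM in *stop1* and 231 and 267 CPM in wild-type (log2 difference -3.06 ± 0.15, adjusted p = 4.38e-10), although its annotation overlaps that of another gene on the same strand. Of 19 pump genes and subunits 4 were lower, *HA2*, *HA3*, *HA7* and *HA11*, all of the plasma membrane, and the other 15 were not called. Of 28 aquaporin genes, 15 were lower and 2 higher, with a median log2 difference of -0.71 in +Al and 0.34 in -Pi_pH5. *PIP1A*, a channel of the plasma membrane, had 109 and 73.5 CPM in *stop1* +Al and 407 and 397 CPM in wild-type +Al. In -Pi_pH5 it had 1213 and 1173 CPM in *stop1* and 872 and 900.4 CPM in wild-type, so that the genotypes stood in the opposite order. No aquaporin gene was called between the genotypes in -Pi_pH5. *PIP2B* had 139.9 and 106 CPM in *stop1* +Al and 497 and 487 CPM in wild-type +Al (interaction -2.38, adjusted p = 5.67e-06). The vacuolar channel *GAMMA-TIP* had 185 and 154 CPM in *stop1* and 689 and 534 CPM in wild-type. The interaction was called below 0 for 14 of the aquaporins.

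Of 24 genes of respiration, the tricarboxylic acid cycle and malate metabolism 5 were lower, 2 higher and 17 not called, with a median log2 difference of -0.01. The higher genes numbered 1 without *stop1* replicate 1 and 0 without wild-type replicate 1 or without *stop1* replicate 2. *PPC3*, a phosphoenolpyruvate carboxylase of roots that feeds malate synthesis, had 72.2 and 75.4 CPM in *stop1* against 1017 and 815 CPM in wild-type (log2 difference -3.61, adjusted p = 1.01e-09). The malic enzyme *NADP-ME2* had 413 and 396 CPM in *stop1* and 1224 and 1483 CPM in wild-type. In -Pi_pH5 the *PPC3* genotype difference was smaller (interaction -2.31, adjusted p = 7.17e-05), with 424 and 312 CPM in *stop1* and 1048 and 769 CPM in wild-type. The glycolytic enzyme *GAPC2*, which is not in that list, had 1385 and 1449 CPM in *stop1* +Al and 2858 and 3433 CPM in wild-type +Al. MATE transporters, a family that exports citrate and other compounds, were called in both directions, with 9 of 43 higher and 6 lower, or 2 lower without *stop1* replicate 2. With all libraries these are 20.9% higher and 13.95% lower, beside 11.2% and 8.92% over all genes. AT1G71140 had 154 and 170.5 CPM in *stop1* and 7.69 and 29.6 CPM in wild-type, whereas AT1G51340 had 8.22 and 6.55 CPM in *stop1* and 70.2 and 116 CPM in wild-type.

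In iron homeostasis 14 of 44 genes were lower and 3 higher. *NAS1*, which makes the metal chelator nicotianamine, had 16.0 and 4.56 CPM in *stop1* +Al and 157 and 130 CPM in wild-type +Al, while in -Pi_pH5 it had 176 and 126 CPM in *stop1* and 165 and 126 CPM in wild-type. *BHLH100*, a regulator of the iron deficiency response, had no read in *stop1* and 3.46 and 5.80 CPM in wild-type, at least 32.7-fold lower. The metal transporter *NRAMP1* had 44.4 and 41.9 CPM in *stop1* and 127 and 175 CPM in wild-type. *FER1*, the iron storage protein ferritin, was higher, with 149.7 and 174 CPM in *stop1* and 76.8 and 85.0 CPM in wild-type. Without wild-type +Al replicate 1, 9 iron genes were lower, and 1 was higher without *stop1* replicate 1. edgeR's likelihood ratio test called 7 iron genes higher.

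Phosphate starvation genes were split, with 10 of 34 higher and 6 lower, or 3 lower without *stop1* replicate 2. *SPX3*, a sensor of phosphate status, had 25.0 and 19.0 CPM in *stop1* and 0.892 and 2.52 CPM in wild-type (log2 difference 3.14 ± 0.31, adjusted p = 1.72e-06). The pyrophosphatase *PS2* had 98.0 and 101 CPM in *stop1* and 16.3 and 24.7 CPM in wild-type. The uptake transporter *PHT1;1* went the other way, with 190.5 and 153 CPM in *stop1* and 518 and 566 CPM in wild-type. In -Pi_pH5, which also lacks Pi, *PHT1;1* had 572 and 473 CPM in *stop1* and 400 and 319 CPM in wild-type (interaction -2.20, adjusted p = 2.595e-05).

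Root hair genes, which are expressed in a subset of epidermal cells, were lower as a group. Of 39 members 22 were lower and 1 higher (*SHV3*), with a median log2 difference of -0.89, and 16 had an interaction below 0. The call of *SHV3* was lost when any one of the 4 +Al libraries was left out. In bulk root tissue, fewer cells of a type and less RNA per cell cannot be told apart. *COW1*, a lipid transfer protein of hair growth, had 18.2 and 15.4 CPM in *stop1* and 74.8 and 43.0 CPM in wild-type. *RHS6*, a kinase specific to root hairs, had 1.93 and 1.26 CPM in *stop1* and 12.04 and 7.38 CPM in wild-type. Summed over the list, *stop1* +Al had 1503 and 1424 CPM and wild-type +Al 3335 and 2053 CPM. The wild-type replicates thus differed from each other by more than the *stop1* replicates did, yet both lay above the mutant, and 16 genes were lower without wild-type replicate 1. Of 42 mitotic cell cycle genes, marks of dividing cells, 0 were called by limma and by edgeR's likelihood ratio test, and 0 were higher and 1 lower at an unadjusted p under 0.05, with a median log2 difference of 0.09. Without wild-type replicate 2, limma called 1 of them lower. Of 9 root cap genes 5 were lower, with summed levels of 72.2 and 58.9 CPM in *stop1* and 124 and 82.7 CPM in wild-type, and 1 was lower without wild-type replicate 1 and 3 without *stop1* replicate 1. *SMB*, a NAC factor of the root cap, had 4.59 and 5.73 CPM in *stop1* and 11.5 and 7.74 CPM in wild-type, a call that was also lost without that wild-type library.

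**Figure D2:**
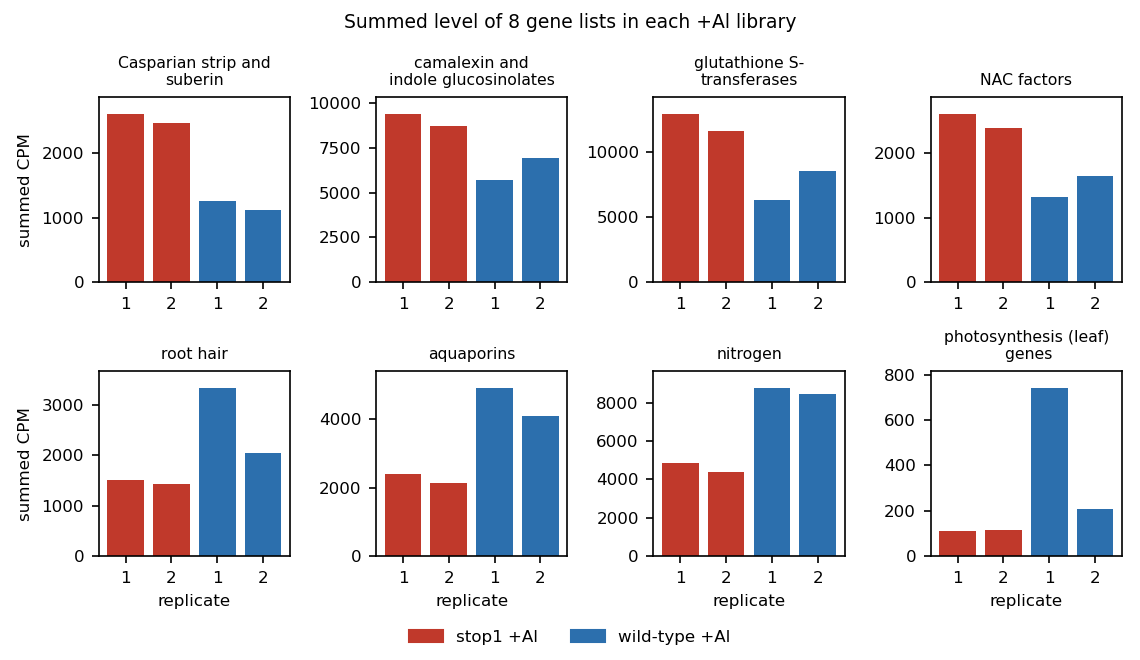
Summed CPM of 8 gene lists in the *stop1* +Al libraries and then the wild-type +Al libraries (bars, replicates 1 and 2 of each). Photosynthesis genes reach 739.6 CPM in wild-type replicate 1 and 111 to 206 CPM in the other 3 libraries, while root hair genes sum to 1424 to 1503 CPM in *stop1* and 2053 to 3335 CPM in wild-type.

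Proteins of the cell wall were called in both directions. Of 22 expansins, which loosen the wall, 6 were lower, 4 higher and 12 not called, with a median of -0.01, and 1 was higher without wild-type replicate 1 and 2 without either *stop1* replicate. Among 89 extensins and arabinogalactan proteins 32 were lower and 13 higher. Without wild-type replicate 1, 11 were lower and 7 higher, without *stop1* replicate 2, 16 were lower, and 7 and 5 were higher without wild-type replicate 2 and without *stop1* replicate 1. With only the 4 libraries of +Al in the fit, 9 were lower and 9 higher. *FLA13*, an arabinogalactan protein with a fasciclin domain, had 3.26 and 2.81 CPM in *stop1* and 30.8 and 14.3 CPM in wild-type. *AGP1* stood on the other side, with 260.1 and 264 CPM in *stop1* and 87.2 and 113 CPM in wild-type. Of 26 xyloglucan enzymes 9 were lower and 4 higher. *XTH26*, an enzyme of root hairs, had 10.05 and 7.23 CPM in *stop1* and 112 and 55.9 CPM in wild-type, while *XTH11* had 11.2 and 10.5 CPM in *stop1* and 1.505 and 2.83 CPM in wild-type. Of 115 pectin modifying proteins 31 were lower and 17 higher. Without wild-type replicate 1, 16 were lower and 9 higher, without *stop1* replicate 1, 19 were lower and 7 higher, and without *stop1* replicate 2, 10 were higher. The pectin methylesterase AT5G04960 was the one with the lowest log2 difference, with 21.7 and 16.0 CPM in *stop1* and 256 and 124 CPM in wild-type.

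Class III peroxidases, which act on the wall with hydrogen peroxide, were called in both directions in equal number, 16 higher and 16 lower of 60. *PA2* had 50.4 and 35.0 CPM in *stop1* +Al and 2.90 and 4.27 CPM in wild-type +Al (log2 difference 3.25 ± 0.18, adjusted p = 1.29e-09). AT5G19880 had 40.2 and 30.1 CPM in *stop1* and 1.06 and 1.17 CPM in wild-type. Both were among the 10 higher genes with the smallest p. AT4G26010 had 62.6 and 54.8 CPM in *stop1* and 436 and 205 CPM in wild-type. In -Pi_pH5 *PA2* had 1.44 and 1.39 CPM in *stop1* and 2.73 and 2.13 CPM in wild-type, so that among these 4 groups the high level was that of *stop1* +Al.

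**Figure D3:**
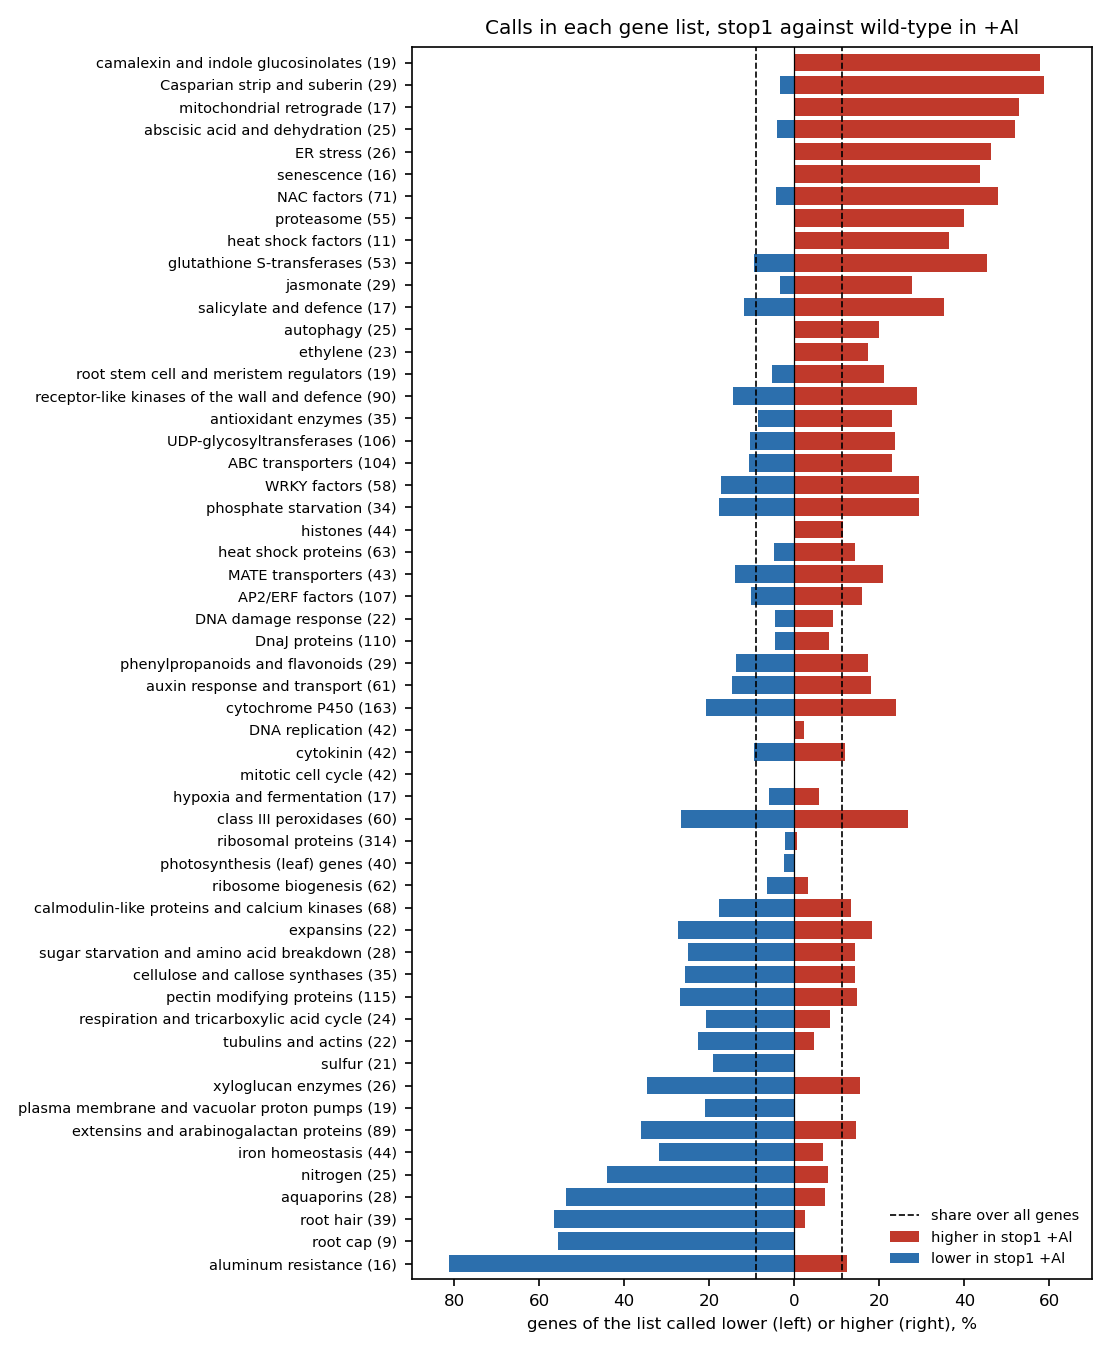
Share of the measured genes of each list that were called higher (bars to the right, %) or lower (bars to the left, %) in *stop1* +Al against wild-type +Al. Dashed lines mark 11.2% and 8.92%, the shares over all genes tested. The bars for aluminum resistance, root hair, root cap and aquaporins reach farthest to the left, and those for the Casparian strip and suberin, camalexin, and mitochondrial retrograde genes farthest to the right.

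Genes of the Casparian strip and suberin, the barriers of the endodermis, were higher in the mutant. Of 29 measured genes 17 were higher and 1 lower, with a median log2 difference of 1.08, and 16 were higher without wild-type replicate 1. *ABCG6*, a transporter that takes part in suberin deposition, had 199.7 and 201 CPM in *stop1* against 36.0 and 39.4 CPM in wild-type. Its relative *ABCG16*, counted with the ABC transporters, had 38.7 and 38.8 CPM in *stop1* and 1.505 and 3.96 CPM in wild-type. *GPAT7*, an acyltransferase of suberin synthesis, had 40.9 and 35.5 CPM in *stop1* and 6.91 and 10.2 CPM in wild-type. *KCS20*, which elongates fatty acids, had 124 and 112 CPM in *stop1* and 50.4 and 48.3 CPM in wild-type. In -Pi_pH5 *ABCG6* had 21.6 and 38.1 CPM in *stop1* and 25.6 and 18.0 CPM in wild-type, and *ABCG16* 1.25 and 2.36 CPM in *stop1* and 1.27 and 1.02 CPM in wild-type. The transcription factor *MYB93*, found in the endodermis over new lateral roots, had 63.9 and 63.2 CPM in *stop1* +Al and 25.5 and 26.1 CPM in wild-type +Al. The lower member was AT1G61590, a kinase needed for the Casparian strip, at a log2 difference of -0.65, a call lost without *stop1* replicate 2.

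Abscisic acid genes were higher as well, with 13 of 25 higher, 1 lower and a median of 0.70. *NCED3*, the rate-limiting enzyme of abscisic acid synthesis, had 33.3 and 31.5 CPM in *stop1* +Al against 0.892 and 0.899 CPM in wild-type +Al (log2 difference 4.14 ± 0.30, adjusted p = 5.31e-08). In -Pi_pH5 it had 0.766 and 2.08 CPM in *stop1* and 0.376 and 0.485 CPM in wild-type (interaction 3.43). *HAI1*, a phosphatase of the abscisic acid pathway that the hormone induces, had 22.9 and 13.7 CPM in *stop1* +Al and 1.17 and 1.98 CPM in wild-type +Al. The related phosphatases *PP2CA* and *ABI2* were higher by 0.93 and 1.24 on the log2 scale. *CYP707A3*, which breaks abscisic acid down, was the lower one, with 4.22 and 4.81 CPM in *stop1* and 7.75 and 8.99 CPM in wild-type, a call lost without wild-type replicate 2 or without *stop1* replicate 1. Without wild-type replicate 1, and also without *stop1* replicate 1, 7 of the 25 were higher. Of 23 ethylene genes 4 were higher and the other 19 were not called, while 1 was lower without wild-type replicate 1. These 4 encode ACC synthases, which make the precursor of ethylene, with *ACS6* at 53.3 and 45.9 CPM in *stop1* and 19.6 and 22.2 CPM in wild-type. Of 29 jasmonate genes 8 were higher and 1 lower, and 3 were higher without wild-type replicate 1 or without *stop1* replicate 1.

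NAC transcription factors, a family with many members that act in stress and senescence, were higher for 34 of 71 and lower for 3, with a median of 0.50. *NAC042* had 159 and 143.5 CPM in *stop1* and 21.7 and 33.4 CPM in wild-type. *NAC053*, which activates proteasome genes, had 140.5 and 141.5 CPM in *stop1* and 39.97 and 54.5 CPM in wild-type. Of 55 proteasome subunit genes 22 were higher and the other 33 were not called, with a median of 0.27 and a highest log2 difference of 0.69, for *RPT1A* with 388 and 395 CPM in *stop1* and 234 and 252 CPM in wild-type. The proteasome count fell to 4 without wild-type replicate 1 and to 8 without either *stop1* replicate. The count of higher NAC genes was 21 without wild-type replicate 1 and also without *stop1* replicate 1, and that of lower ones was 1 without wild-type replicate 1. Of 16 senescence genes 7 were higher and the other 9 were not called. *SAG13*, a marker of leaf senescence, had 11.6 and 11.3 CPM in *stop1* and 0.279 and 0.270 CPM in wild-type. *NBR1*, a receptor that brings ubiquitinated proteins to autophagy, had 1405 and 1514 CPM in *stop1* and 393 and 614 CPM in wild-type. Of 25 measured autophagy genes 5 were higher (20%) and the other 20 were not called. Their median log2 difference was 0.285, and 0.125 without wild-type +Al replicate 1.

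The unfolded protein response of the endoplasmic reticulum was represented by 26 genes, of which 12 were higher and the other 14 were not called. *BZIP60*, its transcription factor, had 209 and 190.5 CPM in *stop1* +Al and 46.6 and 86.4 CPM in wild-type +Al. *BIP3*, the inducible chaperone of the compartment, had 13.6 and 9.42 CPM in *stop1* and 0.279 and 1.57 CPM in wild-type. *ERO1* and *PDIL1-2*, which form disulfide bonds, had 28.6 and 27.03 CPM and 258 and 293 CPM in *stop1*, against 9.70 and 10.3 CPM and 126 and 134 CPM in wild-type. Heat shock proteins of all compartments, a list that also holds *BIP3*, were called in both directions, 9 higher and 3 lower of 63, or 5 higher and 5 lower without wild-type replicate 1. With all libraries these are 14.3% higher and 4.76% lower, near the 11.2% and 8.92% over all genes.

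Genes of camalexin and indole glucosinolate synthesis, defence compounds made from tryptophan, were higher for 11 of 19, and the other 8 were not called, while 1 was lower without wild-type replicate 1. *CYP71A12*, which makes an intermediate of camalexin, had 1580 and 1775 CPM in *stop1* +Al and 188 and 259.9 CPM in wild-type +Al (log2 difference 2.91 ± 0.48, adjusted p = 0.000261). In -Pi_pH5 it had 6.61 and 2.36 CPM in *stop1* and 1.27 and 2.81 CPM in wild-type, so that both genotypes had far more of it with aluminum, and the interaction of 2.13 missed the threshold (adjusted p = 0.069). *CYP79B2*, at the entry of both pathways, had 940.2 and 959 CPM in *stop1* and 249 and 286 CPM in wild-type. *PAD3*, the last enzyme of camalexin synthesis, had 214.5 and 160.5 CPM in *stop1* and 38.8 and 50.1 CPM in wild-type. *MYB122*, a regulator of indole glucosinolates, had 37.1 and 38.0 CPM in *stop1* and 3.62 and 6.34 CPM in wild-type.

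Glutathione S-transferases, which conjugate glutathione to toxic compounds, were higher for 24 of 53 and lower for 5. *GSTF6* and *GSTF7* were the most abundant of those called, *GSTF6* with 1531 and 1509 CPM in *stop1* and 197 and 397 CPM in wild-type and *GSTF7* with 2110 and 2046 CPM in *stop1* and 282 and 624 CPM in wild-type. These neighbours are close copies, and their reads could have been split. *GSTU7* had 79.2 and 67.0 CPM in *stop1* and 21.0 and 24.2 CPM in wild-type (log2 difference 1.65 ± 0.14, adjusted p = 4.58e-07), *GSTU19* 847 and 728 CPM in *stop1* and 280.2 and 345 CPM in wild-type, and *GSTU12* 28.8 and 22.6 CPM in *stop1* and 1.73 and 4.002 CPM in wild-type. The calls for *GSTU18*, *GSTL3*, *GSTZ2* and *ERD9* were lost without wild-type replicate 1. *GSTF14* was far from the rest, with 2.48 and 0.971 CPM in *stop1* +Al and 148 and 142 CPM in wild-type +Al, against 68.3 and 29.2 CPM in *stop1* -Pi_pH5 and 85.7 and 100.1 CPM in wild-type -Pi_pH5 (interaction -4.77). Among 35 antioxidant enzymes 8 were higher and 3 lower. Of these enzymes 3 were higher without wild-type replicate 1, and 1 was lower without wild-type replicate 2 and also without *stop1* replicate 2. *MDAR1* and *APX1*, of the ascorbate cycle, were higher, *APX1* with 2026 and 1983 CPM in *stop1* and 976 and 1230 CPM in wild-type. *MDHAR* was lower, with 76.4 and 78.0 CPM in *stop1* and 161 and 197 CPM in wild-type. In a list of 17 genes that respond to mitochondrial dysfunction 9 were higher and the other 8 were not called. Among the higher ones was the external dehydrogenase *NDB2* with 189 and 195 CPM in *stop1* and 83.7 and 99.2 CPM in wild-type, and 4 of the 17 were higher without wild-type replicate 1.

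Families were also formed from the RefSeq product names shared by at least 20 measured genes. Of 109 proteins with a cysteine/histidine-rich C1 domain, whose roles are largely unknown, 46 were lower and 2 higher, with a median of -0.55, and 25 were lower without wild-type replicate 1. The C1 proteins called higher numbered 0 without *stop1* replicate 1 and 1 without wild-type replicate 1 or without *stop1* replicate 2. AT2G28270 of this family had no read in *stop1* +Al and 5.63 and 9.26 CPM in wild-type +Al. Of 26 mannose-binding lectins 11 were lower and 4 higher, and AT1G52070 had 8.12 and 7.23 CPM in *stop1* and 746 and 321 CPM in wild-type. Of 31 SAUR-like genes, named for their induction by auxin, 8 were lower and the other 23 were not called. On the other side, 11 of 25 VQ motif proteins, partners of WRKY factors, were higher and 2 lower, and 12 of 29 proteins of a family related to late embryogenesis proteins were higher and 2 lower. *YLS9* of that family had 341 and 329 CPM in *stop1* and 21.5 and 42.3 CPM in wild-type. WRKY factors were called in both directions, 17 higher and 10 lower of 58, with *WRKY55* at 9.73 and 5.19 CPM in *stop1* and 0.279 and 0.495 CPM in wild-type and *WRKY38* at 0.964 and 1.36 CPM in *stop1* and 11.3 and 9.53 CPM in wild-type. Without wild-type replicate 1, 7 lectins and 5 SAUR-like genes were lower, 6 VQ proteins were higher and 9 WRKY factors were higher, and without *stop1* replicate 1, 6 VQ proteins and 7 of the proteins related to late embryogenesis proteins were higher. Without *stop1* replicate 2, 7 lectins, 5 SAUR-like genes and 6 WRKY factors were lower. The lectins called higher numbered 2 without wild-type replicate 1 and 1 without wild-type replicate 2 or without *stop1* replicate 1, and 1 SAUR-like gene was higher without wild-type replicate 2. The VQ proteins called lower numbered 1 without replicate 2 of either genotype, and the proteins related to late embryogenesis proteins called lower 1 without either wild-type replicate or without *stop1* replicate 1.

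Several lists stood near or below the background of 11.2% higher and 8.92% lower. Of 314 ribosomal protein genes 2 were higher and 7 lower, with a median of -0.21, of 42 DNA replication genes 1 was higher and 41 were not called, and of 44 histones 5 were higher and 39 were not called. An exception for higher genes was the list of 19 regulators of the root stem cells and the meristem, with 4 higher (21.05%) and 1 lower. Of 22 DNA damage genes 2 were higher and 1 lower, and of 42 cytokinin genes 5 were higher and 4 lower. Most of these counts moved with single libraries. The ribosomal genes called lower numbered 2 without either wild-type replicate or without *stop1* replicate 1, and those called higher 0 without wild-type replicate 1 or either *stop1* replicate. The cytokinin genes called higher numbered 0 without *stop1* replicate 1, 1 without wild-type replicate 1 and 3 without replicate 2 of either genotype, and those called lower 2 without wild-type replicate 1 and 0 without *stop1* replicate 2. The DNA damage genes called higher numbered 1 without wild-type replicate 2 and 0 without any one of the other 3 libraries, and those called lower 2 without wild-type replicate 2. Without either wild-type replicate 2 stem cell and meristem regulators were higher, and the lower one was lost without wild-type replicate 1 or either *stop1* replicate. Of the histones 3 were higher without *stop1* replicate 1, and 1 DNA replication gene was lower without wild-type replicate 2.

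The 10 genes of each direction with the smallest p were also read in -Pi_pH5. The AT1G26410 protein, related to the berberine bridge enzyme, had 103 and 94.3 CPM in *stop1* +Al and 6.63 and 7.65 CPM in wild-type +Al, but 0.192 and 0.231 CPM in *stop1* -Pi_pH5 and no read in wild-type -Pi_pH5. *AIR12*, a cytochrome of the plasma membrane that auxin induces, had 260.1 and 294 CPM in *stop1* +Al and 56.7 and 54.6 CPM in wild-type +Al. The protease AT3G19390 had 449 and 452 CPM in *stop1* +Al and 113 and 144 CPM in wild-type +Al, and *RK3*, a receptor kinase with a lectin domain, 8.95 and 8.35 CPM in *stop1* +Al and 0.279 and 0.405 CPM in wild-type +Al. All 10 of the higher genes had an interaction above 0. Of the 10 lower genes 8 had one below 0, and *STOP2* and *CIPK23* missed the threshold. The interaction contains the +Al difference by which these genes were picked, so these signs are no independent support. In CPM the largest gain was that of *BGLU25*, a beta-glucosidase, with 2546 and 3525 CPM in *stop1* +Al and 496 and 1575 CPM in wild-type +Al.

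**Figure D4:**
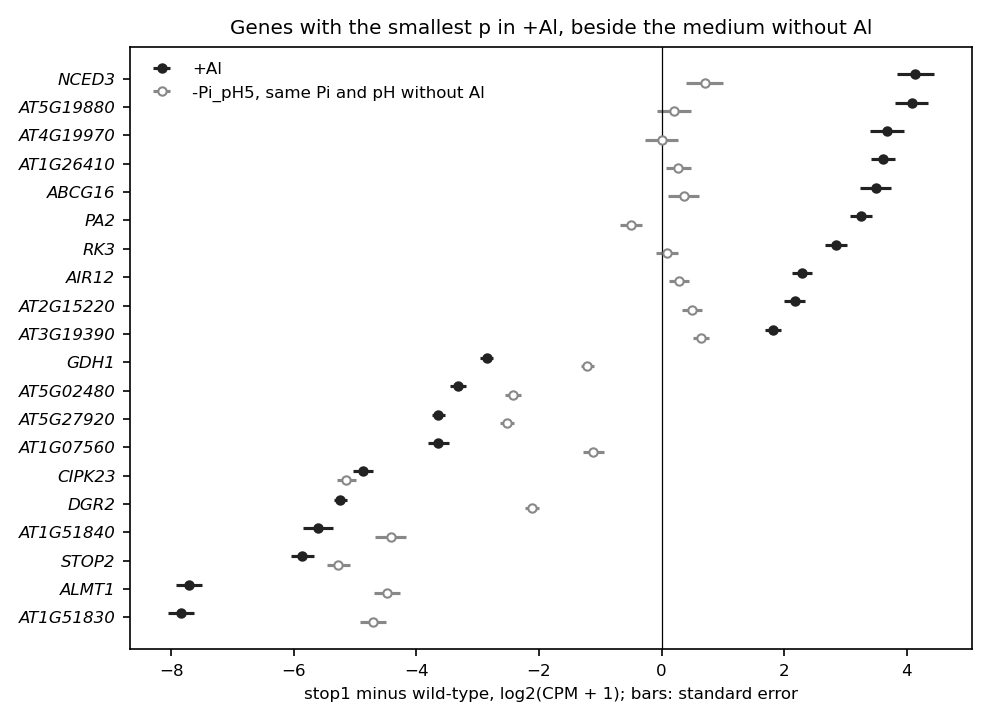
Log2 difference between *stop1* and wild-type in +Al (filled points) and in -Pi_pH5 (open points) for the 10 higher and 10 lower genes with the smallest p in +Al, with standard errors as bars. The points of both media lie close together for *CIPK23* and *STOP2* and far apart for *NCED3*, *PA2* and *AT1G26410*.

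The promoters of the called genes were searched for motifs on both strands, in the 250 bases before and the 50 bases from the annotated gene start, in 20413 genes with such a window. The CAMTA box ACGCGT, which calmodulin-binding transcription activators recognise, was present in 4.81% of the promoters of higher genes and in 1.81% of those of lower genes, against 2.29% of all promoters. Among genes at least 2-fold higher it was present in 6.49%, and of all genes with the box 23.55% were called higher. A heat shock element GAANNTTC was present in 15.9% of higher and 9.59% of lower genes, against 11.4% of all. The abscisic acid response element ACGTGTC was present in 7.12% of higher and 3.45% of lower genes, against 4.81% of all, and the G-box CACGTG, which overlaps it in CACGTGTC, in 10.9% of higher and 6.19% of lower genes, against 8.49% of all. The W-box (TTGACC or TTGACT) was present in 39.9% of higher and 38.0% of lower genes, against 33.0% of all. The site II element TGGGCC, bound by TCP factors, was present in 10.6% of higher and 8.82% of lower genes, against 18.3% of all, and the telo-box AAACCCT, frequent in genes of translation, in 5.59% of higher and 6.74% of lower genes, against 9.34% of all. The TGA element TGACG was present in 25.9% of higher and 22.4% of lower genes, against 23.8% of all, the MSA core AACGG in 22.8% of higher and 20.55% of lower genes, against 25.9% of all, the E2F site TTCCCGC in 1.005% of higher and 0.877% of lower genes, against 1.57% of all, and the phosphate starvation element GNATATNC (P1BS) in 7.82% of higher and 7.12% of lower genes, against 6.197% of all. These are shares of sequence matches and say nothing of binding.

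**Figure D5:**
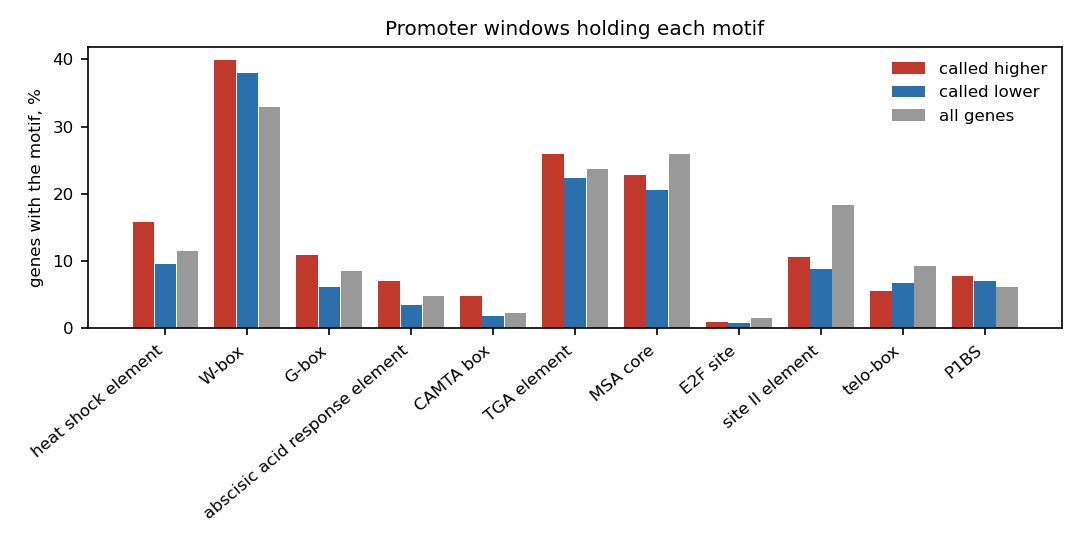
Share of promoter windows of 300 bases that hold each motif, for genes called higher in *stop1* +Al, genes called lower and all genes (bars, %). The CAMTA box is present in 4.81% of higher and 1.81% of lower genes, and the site II element in 10.6% and 8.82% of them beside 18.3% of all genes.

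The CAMTA box is shown in 60 bases upstream of the start of 4 higher genes and 2 lower genes, since this motif differed most in proportion between higher genes and all genes. Sequences are from RefSeq TAIR10.1, written 5′ to 3′ on the strand of the gene, with the box in capitals. The higher genes are *BZIP60* (chr1:16137600-16137659, reverse strand), *NAC103* (chr5:25635815-25635874, reverse strand), *LEA4-5* (chr5:2090568-2090627, reverse strand) and *AGP1* (chr5:25721645-25721704, forward strand), and the lower genes *ALMT1* (chr1:2658457-2658516, forward strand) and *HAK5* (chr4:7802345-7802404, reverse strand). None of these stretches overlaps an annotated gene. *LEA4-5*, a dehydration protein, was chosen after its values were seen.
BZIP60: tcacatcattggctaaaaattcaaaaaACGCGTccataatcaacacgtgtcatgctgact
NAC103: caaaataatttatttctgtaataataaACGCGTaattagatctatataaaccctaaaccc
LEA4-5: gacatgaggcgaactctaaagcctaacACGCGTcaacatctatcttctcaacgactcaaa
AGP1: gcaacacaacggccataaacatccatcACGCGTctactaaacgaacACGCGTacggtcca
ALMT1: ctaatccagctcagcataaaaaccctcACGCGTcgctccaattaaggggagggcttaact
HAK5: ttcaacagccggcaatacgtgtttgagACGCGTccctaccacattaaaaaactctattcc
Only genes that hold the box are shown, so its presence in them was fixed in advance. The unfolded protein response factors *BZIP60* and *NAC103* and the wall protein *AGP1* were higher in *stop1*. *ALMT1* and *HAK5* were far lower. *AGP1* holds 2 boxes in the stretch shown. *NAC103* had 3.81 and 3.64 CPM in *stop1* and 1.06 and 1.35 CPM in wild-type. *LEA4-5* averaged 127 CPM in *stop1* and 18.5 CPM in wild-type.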

How the data were processed

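The authors aligned the reads with HISAT2 2.1.0, counted them on genes with HTSeq 0.11.2 and normalized them with edgeR 3.28.0, per the labels. The deposited signal is CPM with TMM factors, which gave whole reads for 100% of values within 0.01. The strand setting of the counting is not given in the sources used here. Samples were grouped by genotype and medium. limma 3.58.1 in R 4.3.3 was run on log2(CPM + 1) over 20450 genes with 12 conditions (12 residual degrees of freedom), a mean-variance trend, two-sided tests and Benjamini-Hochberg adjustment over all genes. The alternatives were edgeR 4.0.16 and DESeq2 1.42.0 on recovered reads, other scalings, filters and pseudocounts, fewer libraries and a replicate block. Each +Al library was also left out in turn, and for the interaction each -Pi_pH5 library. Libraries of the other media were not left out singly. limma and edgeR were tested on simulated data. Python 3.11.15 was used for tables and plots. A group with 3 reads or fewer in each library was set to that floor, a floor that covers counting error only. Standard errors are limma's and reflect the spread between replicate libraries pooled over all 12 conditions. They do not measure the spread of the 4 +Al libraries alone.

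The genes named are *STOP1*, the aluminum resistance list, genes that the study names, the 10 of each direction with the smallest p, the 5 with the largest difference in CPM, and up to 4 called members of each direction in each list or family. Among these 444 genes, 18 share bases with a gene of the same strand and 88 with one of the other strand. The members and lists were chosen with earlier results of these data known, and 62 wrongly matched list entries were removed after values were seen. Gene positions and promoters are from RefSeq TAIR10.1.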

Additional observations from a re-analysis of the deposited data

Results flagged for a closer look

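The genotype difference in +Al differed from that in -Pi_pH5, by limma's interaction test, for 592 genes above 0 and 771 genes below 0. Among the genes with the smallest p in +Al, the interaction on the log2 scale was 3.34 for AT1G26410, 3.75 for *PA2*, 2.75 for *RK3*, 3.88 for AT5G19880, 2.01 for *AIR12*, 1.17 for AT3G19390, 3.14 for *ABCG16*, 3.43 for *NCED3*, 3.68 for AT4G19970 and 1.67 for AT2G15220. Below 0 it was -3.13 for *DGR2*, -3.13 for AT1G51830, -3.23 for *ALMT1*, -1.12 for AT5G27920, -1.64 for *GDH1*, -0.90 for AT5G02480, -1.19 for AT1G51840 and -2.53 for AT1G07560. All of these genes were picked by their +Al difference, which the interaction contains, so its sign was largely set by that choice. In *stop1* +Al the genes AT1G51840 and *ALMT1* were at the detection floor, so that their fitted values depend on the pseudocount. Groups of 2 libraries were not searched for single deviating libraries.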

How the results depend on the processing

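With 2 libraries per group the counts of calls moved with the libraries that set the spread. With only the libraries compared, 2003 genes differed in +Al (1119 higher, 884 lower) and 860 had an interaction (385 above and 475 below 0). edgeR's quasi-likelihood test found 376 interactions above 0. Leaving out each +Al library in turn gave 2280 to 4260 genes in +Al (1205 to 2411 higher and 1075 to 1849 lower). Leaving out each library of +Al or -Pi_pH5 gave 750 to 1985 interactions (270 to 973 above and 464 to 1012 below 0). These fits have fewer samples. Among the lists, the fit of only the libraries compared called 16 NAC factors, 7 proteasome genes and 7 abscisic acid genes higher, 12 root hair genes and 28 C1 domain proteins lower, and 9 pectin modifying proteins higher and 14 lower. edgeR's likelihood ratio test (4393 genes), its quasi-likelihood test (4048), DESeq2 (4319), library size only (4098), RLE size factors (4138), a pseudocount of 0.1 (4155), a mean CPM of at least 1 (3932) and leaving out *stop1* +Pi_pH6 and +Pi_pH5 (3829) stayed within 1.5 times in +Al. Whether equal replicate numbers pair the libraries was not settled. The correlation of the deviations of equal numbers was 0.41 in +Pi_pH6 and 0.43 in -Pi_pH5. It was -0.28 in -Pi_pH6, -0.19 in +Pi_pH5, -0.02 in +Al and 0.01 in ++Fe. The limma fit of the results above has no replicate block. A replicate block gave 4554 genes in +Al (2541 higher, 2013 lower) and 1646 interactions (768 above and 878 below 0), and changed the call of 0 of the 444 named genes. None of the named genes changed direction under the settings run for them, but 106 lost their call with only the libraries compared. Without a single +Al library, the median log2 difference changed sign in 4 to 10 of the 55 lists. The highest number, 10, was reached without wild-type replicate 1. Library size only moved the median of all genes to -0.03, from -0.02.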
